A study of Mus musculus with 3 samples.

Results

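The nuclear genes for the subunits of the mitochondrial respiratory chain and ATP synthase were followed in mouse liver across 3 RNA sequencing libraries. Members were the protein-coding genes whose symbols carry the prefixes Nduf (complex I, assembly factors left out), Sdha to Sdhd (complex II), Uqcr (complex III), Cox4 to Cox8 (complex IV) and Atp5 (complex V). The rule found 84 genes among 41799 in the deposited tables, of which 22052 were protein coding. They comprised 37 genes of complex I, 4 of complex II, 8 of complex III, 18 of complex IV and 17 of complex V. A mean of at least 1 CPM (reads counted per 1000000 counts of the library) over the 3 libraries was reached by 75 of the 84, and by 13153 genes in all. The rule reads gene symbols only.

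The mice were male C57BL/6 (given as C57BL/6J in the husbandry text), 14 weeks old, with free access to food. One group of 8 mice ate regular chow. A second group of 8 ate a high-fat diet (HFD). The third group of 8 ate the HFD and received DfCS-Ib at 40 mg/kg by oral gavage. The design text describes the agent as a sulfated oligosaccharide. Each group is represented by 1 library of total liver RNA, and the labels do not say how many of the 8 mice contributed to it, so differences between libraries have no replicate check and no test between groups was possible. The husbandry text mentions more groups than these 3, and the others were not analysed here.

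The respiratory chain passes electrons from NADH (complex I) and succinate (complex II) through ubiquinone to complex III, then by cytochrome c to complex IV, where oxygen is reduced. Complexes I, III and IV pump protons across the inner mitochondrial membrane, and ATP synthase, complex V, uses the gradient to make ATP. Most subunits are encoded in the nucleus, made in the cytosol and imported, and are assembled with a small set of subunits encoded on the mitochondrial genome. In liver this machinery serves fatty acid oxidation, gluconeogenesis and urea synthesis.

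The libraries held 11028671 counts (chow), 12279537 counts (HFD) and 10969699 counts (DfCS-Ib). The members took 0.985%, 1.08% and 0.869% of them in that order. Values below are CPM scaled by the trimmed mean of M-values (TMM). Ratios of sets are log2 ratios of CPM + 1, and a fold for a single gene is given with its 95% exact (Clopper-Pearson) interval, which covers counting error only. All 8 hepatocyte markers were detected and summed to 137115, 111147 and 121380 CPM in the chow, HFD and DfCS-Ib libraries. The 8 Kupffer cell and macrophage markers summed to 281, 345 and 614 CPM. In whole liver, fewer cells of a type and less RNA per cell cannot be told apart.

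Promoter sequences are shown first because many members share letters there that the symbol rule did not use. RefSeq promoters (GRCm38.p6, the mm10 assembly), reaching from 250 bases before to 50 after the gene start, were matched for 66 of the 84 members. Each was searched on both strands for motifs of 4 regulators known for respiratory genes: the NRF1 element (the capitals in Sdha below), ETS proteins such as GABPA (CCGGAAG), YY1, and the estrogen-related receptors, ERR (TCAAGGTCA). No pair of these motifs shares its letters, although NRF1 can match both strands at 1 position. Below are the 250 bases before the start in 1 described member of each complex, 5′ to 3′ in the direction of transcription, with matched letters in capitals. Each member shown has a match there, whereas any of the 4 motifs was found in 30 of the 66 matched members.

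Ndufs6, chr13:73328483-73328732 (minus strand): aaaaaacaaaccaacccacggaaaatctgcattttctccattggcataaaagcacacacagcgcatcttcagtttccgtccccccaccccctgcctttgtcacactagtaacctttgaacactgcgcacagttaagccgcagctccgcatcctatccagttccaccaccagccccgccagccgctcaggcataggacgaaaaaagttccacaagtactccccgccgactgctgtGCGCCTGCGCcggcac

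Sdha, chr13:74350241-74350490 (minus strand): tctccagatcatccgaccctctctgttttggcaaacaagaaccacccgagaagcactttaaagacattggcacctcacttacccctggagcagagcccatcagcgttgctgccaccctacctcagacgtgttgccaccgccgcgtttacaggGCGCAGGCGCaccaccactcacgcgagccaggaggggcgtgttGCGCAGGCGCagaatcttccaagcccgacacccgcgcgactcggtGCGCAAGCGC

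Uqcr11, chr10:80406822-80407071 (minus strand): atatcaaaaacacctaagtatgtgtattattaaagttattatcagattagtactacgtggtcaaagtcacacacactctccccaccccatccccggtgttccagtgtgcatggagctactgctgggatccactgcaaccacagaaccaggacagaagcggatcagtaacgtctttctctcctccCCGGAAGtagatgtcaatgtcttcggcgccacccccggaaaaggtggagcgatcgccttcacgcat

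Cox6a1, chr5:115348959-115349208 (minus strand): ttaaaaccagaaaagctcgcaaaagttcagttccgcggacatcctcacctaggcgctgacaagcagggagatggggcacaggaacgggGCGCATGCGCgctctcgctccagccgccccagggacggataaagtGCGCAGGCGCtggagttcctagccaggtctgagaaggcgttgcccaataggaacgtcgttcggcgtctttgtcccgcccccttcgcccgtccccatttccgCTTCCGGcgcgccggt

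Atp5k, chr5:108434400-108434649 (minus strand): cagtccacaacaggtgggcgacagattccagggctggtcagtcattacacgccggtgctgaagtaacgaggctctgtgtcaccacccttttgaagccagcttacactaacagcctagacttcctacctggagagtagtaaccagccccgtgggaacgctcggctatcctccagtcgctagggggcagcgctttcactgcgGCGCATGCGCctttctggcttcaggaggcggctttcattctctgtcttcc

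Sdha, the flavoprotein that oxidizes succinate, carried 3 NRF1 matches in this stretch. Cox6a1, a subunit of cytochrome oxidase, carried NRF1 letters at 2 positions, 1 of them read on both strands, and 1 ETS match. Uqcr11 had 1 ETS match, and Ndufs6 and Atp5k had NRF1 letters at 1 position each before the start. The NRF1 letters were present in 24.2% of the 66 matched members, in 4.82% of all 27025 promoters of the table and in 11.7% of the matched promoters of protein-coding genes averaging 10 CPM or more. The ETS letters were present in 22.7% of members, 9.16% of all promoters and 20.3% of the promoters of genes of at least 10 CPM, so members were close to other genes of that level. YY1 letters were found in 6.06% of members against 0.914% of all promoters and 2.71% of those of genes of at least 10 CPM. ERR letters were found in 3.03% of members, 0.403% of all promoters and 0.158% of those of genes of at least 10 CPM. Promoters with any of the 4 motifs made up 45.5% of members, 14.0% of all promoters and 31.5% of those of at least 10 CPM. Complex V had the NRF1 letters in 5 of 13 matched members and complex IV in 1 of 13.

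Levels of the subunits differed widely between members. Compared per length, as CPM per kilobase averaged over the 3 libraries, the 75 analysed members ran from 2.51 to 703 with a median of 93.0, beside a median of 4.55 over all 13153 genes. Atp5b, the catalytic β subunit of ATP synthase (chr10:128083307-128090388 on mm10), was the highest at 799, 677 and 633 CPM per kilobase in chow, HFD and DfCS-Ib. In complex III the highest was Uqcrq, a small subunit near the ubiquinone sites, at 451, 616 and 463 CPM per kilobase. Complex IV was led by Cox4i1, the largest nuclear-encoded subunit, at 476, 478 and 408, and complex I by Ndufa4 at 446, 476 and 469. Ndufa4 carries a complex I name, but its protein is now placed in complex IV.

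**Figure D1:**
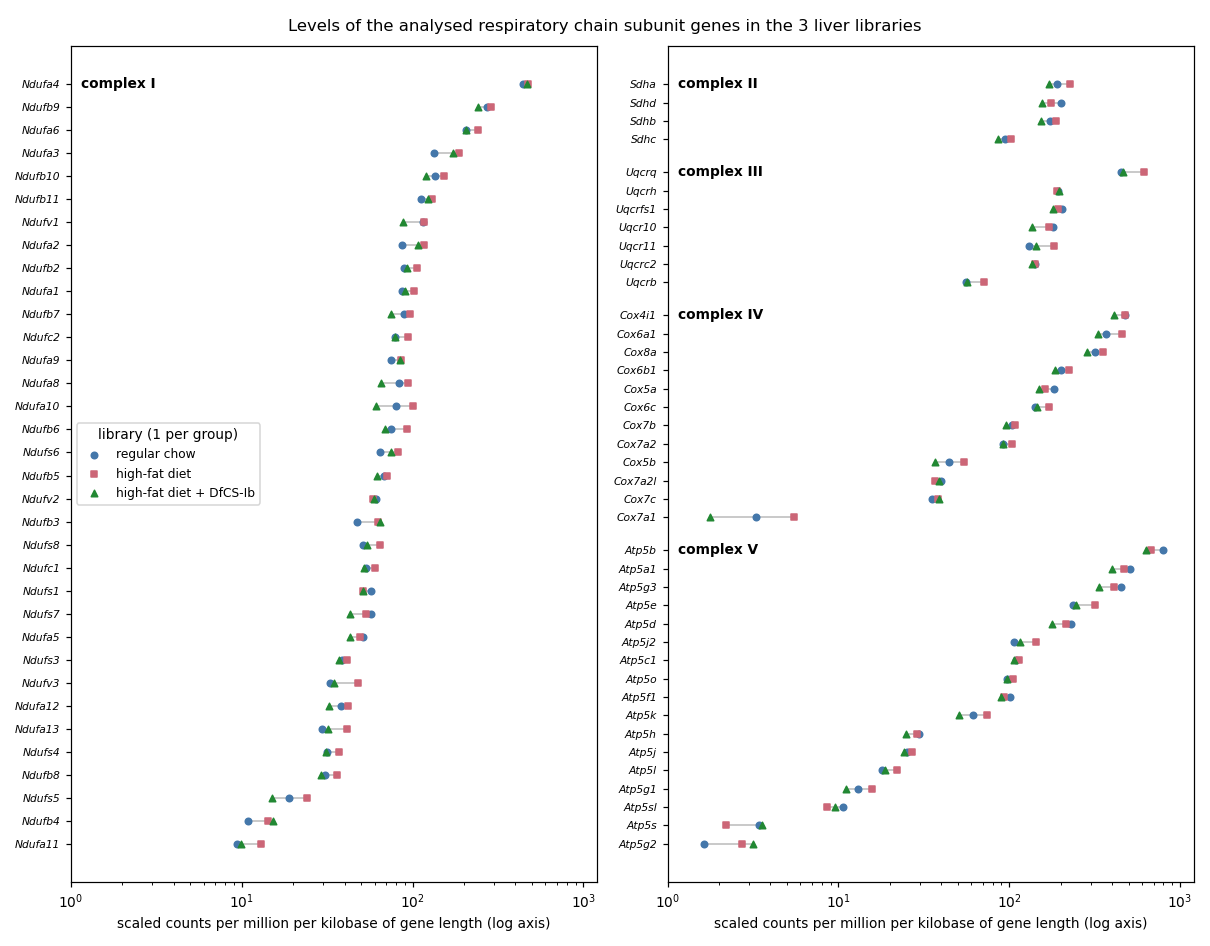
Scaled CPM per kilobase (log axis) of 74 of the 75 analysed subunit genes, sorted within complexes I to V, with 1 circle (chow), 1 square (HFD) and 1 triangle (HFD with DfCS-Ib) per gene and a line joining the lowest to the highest. The triangle is the lowest of the 3 in 42 of the genes drawn and the square is the highest in 51.

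Across the 75 members, levels were slightly higher on HFD than on chow and lower with DfCS-Ib than on HFD. On HFD the median log2 ratio to chow was 0.16, against 0.02 over all genes, and 55 members lay above 1-fold against 51.9% of all genes. With unscaled CPM, which moved the median of all genes to 0.11, 63 members lay above 1-fold against 60.8% of all genes. At least 25% higher on HFD were 15 members, or 20%, against 22.9% of all genes, and with unscaled CPM 32 members against 29.7%. At least 20% lower, the same step downward, was 1 member against 19.6% of all genes. With DfCS-Ib the median log2 ratio to HFD was -0.23, against -0.01 over all genes, and 66 of the 75 members lay below 1-fold against 51.5% of all genes. At least 20% lower were 21 members, or 28%, against 19.5% of all genes, and 1 was at least 25% higher against 18.5%. With unscaled CPM 40 members were at least 20% lower, against 26.9% of all genes. These shifts were small per gene: at 1.5-fold on the CPM + 1 scale, no member differed between HFD and chow (10.4% of all genes higher, 7.72% lower), 3 were lower with DfCS-Ib than on HFD (7.16%) and 1 was higher (7.62%). The 3 lower ones were Ndufa10, Ndufs5 and Cox7a1, and the higher one was Atp5s, which was also the 1 member at least 20% lower on HFD than on chow.

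Set against chow, the DfCS-Ib library had a median log2 ratio of -0.07 against 0.00 over all genes. The summed level of the members was 0.880 times (0.873 to 0.888) that on chow, against 0.998 times for all genes tested. At least 20% lower were 11 members against 11.6% of all genes, and 4 were at least 25% higher against 15.6%. The 4 were Ndufb3, Ndufb4, Ndufa3 and Atp5g2. The lowest of the 3 values was in the DfCS-Ib library in 43 members (28.6% of all genes) and the highest in the HFD library in 51 (39.8%). In 28 members, or 37.3%, HFD was highest and DfCS-Ib lowest, against 16.9% of all genes. In 23 members HFD was highest and chow lowest (22.9% of all genes), and in 15 chow was highest and DfCS-Ib lowest (11.7%). Both of the first comparisons use the same HFD library, so a high value there enters both. Counting error was small beside many of these ratios: the interval for DfCS-Ib over HFD lay wholly below 1 in 50 members (21.1% of all genes) and wholly above 1 in 1 member (20.5%). The interval for HFD over chow lay above 1 in 35 members (23.3%) and below 1 in 11 (22.2%).

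**Figure D2:**
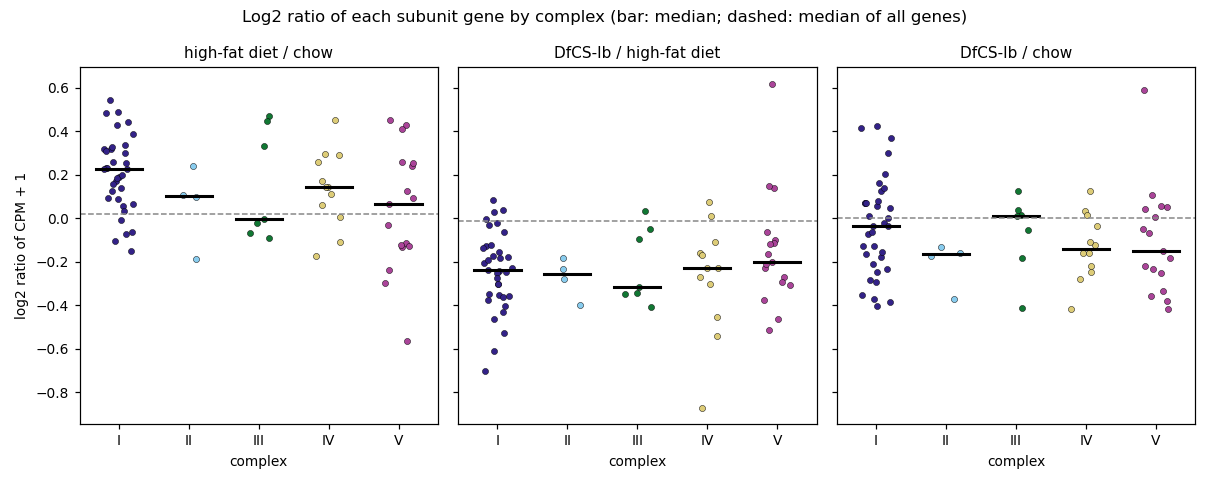
Log2 ratio of CPM + 1 for each analysed subunit gene, by complex, for HFD over chow, DfCS-Ib over HFD and DfCS-Ib over chow, with the median of each complex as a bar and the median of all 13153 genes as a dashed line. The 5 medians for DfCS-Ib over HFD lie between -0.32 and -0.20, whereas those for HFD over chow run from -0.00 to 0.23.

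Complex I, the entry point for electrons from NADH, had a median log2 ratio of 0.23 for HFD over chow. Above 1-fold were 30 of its 35 analysed genes, against 51.9% of all genes. Its membrane arm, which holds the proton channels, was higher on HFD in 19 of 19 genes, with a median of 0.25. Its matrix arm, which takes electrons from NADH and carries them along iron-sulfur clusters, was higher in 10 of 15 genes with a median of 0.14. Against HFD, the DfCS-Ib library was lower in 32 of 35 genes (51.5% of all genes). The median was -0.24, at -0.25 in the membrane arm and -0.23 in the matrix arm.

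The 7 conserved core subunits of the matrix arm differed from the other complex I genes in this respect. Their median for HFD over chow was -0.01, with 3 of 7 above 1-fold, while the other 27 analysed subunits had a median of 0.23 with 26 above. The 8 analysed matrix-arm subunits outside the core had a median of 0.23, which is that of the other subunits and not that of the core. For DfCS-Ib over HFD the core and the other subunits were alike, at -0.24 and -0.24. Ndufv1, which binds NADH and flavin, stood at 184, 188 and 142 CPM, and was 1.32-fold (1.24 to 1.41) lower with DfCS-Ib than on HFD. Ndufs1, which carries several iron-sulfur clusters, stood at 169, 152 and 152 CPM. So chow and HFD were level for Ndufv1, with DfCS-Ib low, whereas Ndufs1 was high on chow and level in the other libraries. Ndufv2, Ndufs3, Ndufs7 and Ndufs8, other core subunits that hold iron-sulfur clusters or line the ubiquinone site, ran from 34.9 to 100 CPM, and among these 4 Ndufs8 alone had an interval for HFD over chow above 1, at 1.24-fold (1.12 to 1.39).

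Among the supernumerary subunits, which surround and stabilize the core, Ndufa10 showed the largest difference between the DfCS-Ib and HFD libraries among members of at least 10 CPM. It stood at 98.1 CPM on chow, 123 on HFD and 75.03 with DfCS-Ib, and was 1.63-fold (1.499 to 1.780) lower with DfCS-Ib than on HFD. Ndufv3, an accessory subunit of the NADH-binding part, had the largest ratio to chow among these members. Its values were 51.8, 75.9 and 54.8 CPM, 1.47-fold (1.32 to 1.63) higher on HFD than on chow and 1.39-fold (1.249 to 1.537) lower with DfCS-Ib. In both genes the HFD library was the high one, but with DfCS-Ib Ndufa10 was below the chow level and Ndufv3 close to it. Ndufa8, a membrane-arm subunit on the intermembrane-space side, resembled Ndufa10 at 61.9, 69.9 and 48.2 CPM.

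The HFD library was the highest in 17 of the 19 analysed membrane-arm genes. Ndufb9, the most abundant of the Ndufb group per length, had 178, 186 and 157 CPM. Ndufb10, a subunit with disulfide bonds facing the intermembrane space, had 85.4, 97.4 and 76.2 CPM, and Ndufb6 had 40.1, 49.7 and 36.6. Ndufs5, also on the intermembrane-space side, had 9.57, 12.2 and 7.64 CPM from 103, 157 and 82 counts, and was 1.60-fold (1.22 to 2.11) lower with DfCS-Ib than on HFD. For these 4 genes DfCS-Ib was the lowest library, though for Ndufb6 and Ndufs5 the interval for DfCS-Ib over chow included 1. In Ndufa1, Ndufb2, Ndufc2 and Ndufa11, which sit in or along the membrane arm, HFD was also highest, with folds of 1.18 to 1.37 over chow. For these genes chow and DfCS-Ib were level within counting error. In the matrix arm Ndufa6, a partner of the acyl carrier protein, had 115, 136 and 116 CPM, and Ndufs4, a late-assembled subunit, had 48.4, 56.8 and 47.7 CPM, so the chow and DfCS-Ib libraries were level and HFD was above both.

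A second group of supernumerary subunits was low on chow and similar in the HFD and DfCS-Ib libraries. Ndufb3, in the distal membrane arm, had 25.3, 33.3 and 34.3 CPM. Ndufa3 had 46.4, 65.6 and 60.1 CPM, 1.41-fold (1.27 to 1.58) higher on HFD than on chow. Ndufa2, of the matrix arm, had 52.0, 70.4 and 64.4 CPM. These 3 genes were 1.24- to 1.36-fold higher with DfCS-Ib than on chow, with intervals above 1. Ndufs6, a zinc-binding matrix-arm subunit whose promoter is shown above, had 36.7, 46.7 and 42.4 CPM, and Ndufa9, a matrix-arm subunit needed for stability of the complex, had 99.3, 114 and 111 CPM. Ndufa13, also known as GRIM-19, was lowest on chow and highest on HFD, with DfCS-Ib nearer chow, at 70.3, 98.8 and 76.8 CPM. Its gene overlaps that of Tssk6 on the opposite strand, as Ndufa2 does Tmco6 and Ndufa9 does 1700018A23Rik. Among the 84 members, 22 overlap another gene model. Whether the counting used strand is not given in the sources used here.

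Complex II, succinate dehydrogenase, links the chain to the tricarboxylic acid cycle and is the one complex with no subunit from the mitochondrial genome. All 4 of its genes had their lowest value with DfCS-Ib, and the median for DfCS-Ib over HFD was -0.26. Sdha stood at 547 CPM on chow, 646 on HFD and 490 with DfCS-Ib, 1.18-fold (1.14 to 1.22) higher on HFD than on chow and 1.32-fold (1.27 to 1.37) lower with DfCS-Ib than on HFD. Sdhb, the iron-sulfur subunit, stood at 187, 202 and 166 CPM, in the same order. The membrane anchors differed from each other: Sdhc stood at 112, 120 and 102 CPM, with HFD highest, and Sdhd at 258, 227 and 200 CPM, with chow highest. On HFD, Sdhd was 0.877 times (0.833 to 0.925) its chow level while Sdha was above it, so HFD and chow were not ordered alike within the 4 genes, whereas DfCS-Ib was lowest in each.

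Complex III, the cytochrome bc1 complex, had 3 small subunits that were high on HFD and 4 other analysed genes that were not. Uqcrq was 244, 334 and 251 CPM, 1.37-fold (1.301 to 1.435) higher on HFD than on chow and 1.33-fold (1.27 to 1.40) lower with DfCS-Ib than on HFD. Uqcr11, the smallest subunit, was 57.2, 79.6 and 62.4 CPM, and Uqcrb, a ubiquinone-binding subunit, 28.2, 35.7 and 28.4 CPM. In these 3 genes HFD was high and the other libraries similar. Uqcrfs1, the Rieske iron-sulfur protein, had 268, 252 and 236 CPM, and Uqcrc2, a core protein, 267, 266 and 257 CPM. Uqcrh, the hinge protein, had 106, 105 and 107 CPM, within counting error in each comparison. Uqcr10 was low with DfCS-Ib alone, at 108, 103 and 81.3 CPM. The complex's median for HFD over chow was -0.00, and it moved to 0.39 when the genes that overlap another gene model were left out.

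Uqcrc1, the other core protein, was listed at 0 in all 3 libraries, as was Ndufa7 of complex I. Since both are constitutive subunits of their complexes, no statement on their expression is made from these zeros.

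Complex IV, cytochrome c oxidase, is known for paired isoforms of its nuclear subunits, one common and one restricted to muscle, lung, testis or other conditions. In liver the common or liver form made up at least 99.755% of the RPKM, the length-scaled value of the authors, of Cox4, Cox6a, Cox6b, Cox7b and Cox8 in each library. For example, Cox4i2, the lung form, was at 1, 2 and 1 counts beside 3912, 4697 and 3346 counts of Cox4i1, and the muscle form Cox8b was at 0, 0 and 1 counts. Cox7a was the exception, with the heart and muscle form Cox7a1 at 3.48% of the isoforms' RPKM on chow, 5.06% on HFD and 1.89% with DfCS-Ib. That share rests on 13, 26 and 7 counts of Cox7a1. The fold between HFD and DfCS-Ib, 3.10 (1.31 to 8.45), has a wide interval, and the ratio on the log2(CPM + 1) scale was -0.87. Skeletal muscle markers summed to 0.558, 0.699 and 0.280 CPM, with Ckm, Myh4, Tnnt3 and Mb at 0, and their part in the Cox7a1 values was not tested.

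Of the 12 analysed complex IV genes, 10 were lower with DfCS-Ib than on HFD (51.5% of all genes), with a median of -0.23. On HFD 10 were higher than on chow (51.9%), with a median of 0.14. Cox6a1 stood at 197, 243 and 177 CPM and was 1.37-fold (1.297 to 1.455) lower with DfCS-Ib than on HFD. Cox5b, the zinc-binding subunit, stood at 25.2, 31.1 and 21.1 CPM, 1.48-fold (1.2505 to 1.7449) lower with DfCS-Ib than on HFD. For both genes HFD was high and DfCS-Ib below chow. Cox4i1 stood at 364, 365 and 312 CPM, level between chow and HFD and low with DfCS-Ib. Cox5a, the partner of Cox4i1 in early assembly, stood at 127, 112 and 104 CPM, with chow highest. Cox8a, a small membrane subunit, stood at 174, 192 and 156 CPM, and Cox6b1, which faces the intermembrane space, at 102, 112 and 93.2 CPM. Cox6c had 71.6, 86.0 and 73.3 CPM, with HFD alone high, and Cox7c had 15.8, 17.2 and 17.3 CPM, within counting error. Cox7a2l, a factor of supercomplex formation and not a regular subunit, was similar in the 3 libraries at 45.5, 42.1 and 44.4 CPM. Ndufa4, counted in complex I by its name, was also similar with 219, 234 and 231 CPM.

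Complex V differed within itself. The F1 head, the catalytic part in the matrix, tended to be highest on chow: its 5 genes had medians of -0.11 for HFD over chow, -0.23 for DfCS-Ib over HFD and -0.34 for DfCS-Ib over chow. Atp5b stood at 1501 CPM on chow, 1273 on HFD and 1189 with DfCS-Ib, so HFD was at 0.848 times (0.830 to 0.867) and DfCS-Ib at 0.792 times (0.774 to 0.811) the chow level. Atp5a1, the α subunit, stood at 1244, 1136 and 971 CPM in the same descending order. Atp5d, the δ subunit of the central stalk, followed it with 223, 207 and 171 CPM. The remaining F1 genes were ordered otherwise: Atp5c1, the γ subunit that turns in the head, had 198, 207 and 191 CPM, and Atp5e, the ε subunit, 97.7, 132 and 101 CPM.

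The other parts of ATP synthase were mixed, and among their genes Atp5g3 and Atp5f1 had the same descending order as Atp5b. The 3 genes of small subunits near the ring, Atp5j2, Atp5k and Atp5l, were each higher on HFD than on chow (median 0.26) and lower with DfCS-Ib than on HFD (median -0.31). Atp5k was at 17.9, 21.7 and 14.9 CPM, 1.45-fold (1.19 to 1.78) lower with DfCS-Ib than on HFD. The 4 genes of the peripheral stalk, which holds the head still, were close to level between chow and HFD (median 0.03), and 4 of 4 were lower with DfCS-Ib (median -0.14). Atp5f1, its b subunit, had 181, 166 and 159 CPM, and Atp5o, the oligomycin sensitivity protein that joins stalk and head, had 74.6, 81.4 and 74.9 CPM. The rotating c-ring is encoded by 3 genes with different leader peptides and the same mature protein. Atp5g3 made up 95.7% to 96.8% of their RPKM, and it stood at 326, 298 and 244 CPM, 0.748 times (0.711 to 0.787) its chow level with DfCS-Ib. Atp5g1 was at 11.3, 13.6 and 9.60 CPM and Atp5g2 at 1.21, 2.02 and 2.33 CPM, the latter from 13, 26 and 25 counts.

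Because the most abundant complex V transcripts were highest on chow, sums and medians differ for this complex. Its summed level on HFD was 0.919 times (0.907 to 0.931) that on chow, a lower value, while the median gene had a log2 ratio of 0.07. For complex I the sum on HFD was 1.12 times (1.10 to 1.13) that on chow. With DfCS-Ib the sums of complexes I to V were 0.854, 0.801, 0.870, 0.838 and 0.885 times those on HFD, each with a counting interval below 1. All genes tested, summed in the same way, came to 0.931 times for HFD over chow and 1.07 times for DfCS-Ib over HFD.

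Both Atp5s and Atp5sl match the symbol pattern but are not structural subunits. Atp5s, known as coupling factor B, was the member that went most clearly against the rest: it stood at 8.74, 5.60 and 9.13 CPM and was 0.641 times (0.465 to 0.880) its chow level on HFD. It was also the only member whose interval for DfCS-Ib over HFD lay above 1. Atp5sl, which takes part in assembly of the complex I membrane arm, stood at 25.8, 20.8 and 23.2 CPM, again with HFD lowest.

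Length went along with the difference between HFD and chow. The 41 analysed members of up to 800 bases had a median log2 ratio of 0.25 for HFD over chow, and the 34 longer ones 0.06. Other protein-coding genes of at least 10 CPM had a median of 0.28 when up to 800 bases long (177 genes) and -0.02 when longer (7110 genes), so the short members were close to other short genes. Over the 75 members the Spearman correlation of this ratio with log2 length was -0.48 (Pearson -0.45), and over 7357 protein-coding genes it was -0.31 (Pearson -0.22). All points come from the same pair of libraries. The 7 core subunits of complex I and the α, β, γ and δ genes of the F1 head are all over 800 bases long. The 9 other analysed complex I subunits of that length were above 1-fold in 9 of 9 with a median of 0.23, beside -0.01 for the core. The part of RNA fragment size or quality in the HFD library was not tested.

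For DfCS-Ib over HFD, length separated the members less. Members of up to 800 bases had a median of -0.24 and longer members -0.19, with 30 of the 34 longer ones below 1-fold. Other genes had medians of -0.15 when short and 0.00 when long. The Spearman correlation with log2 length was 0.18 over the members and 0.25 over the 7357 genes.

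**Figure D3:**
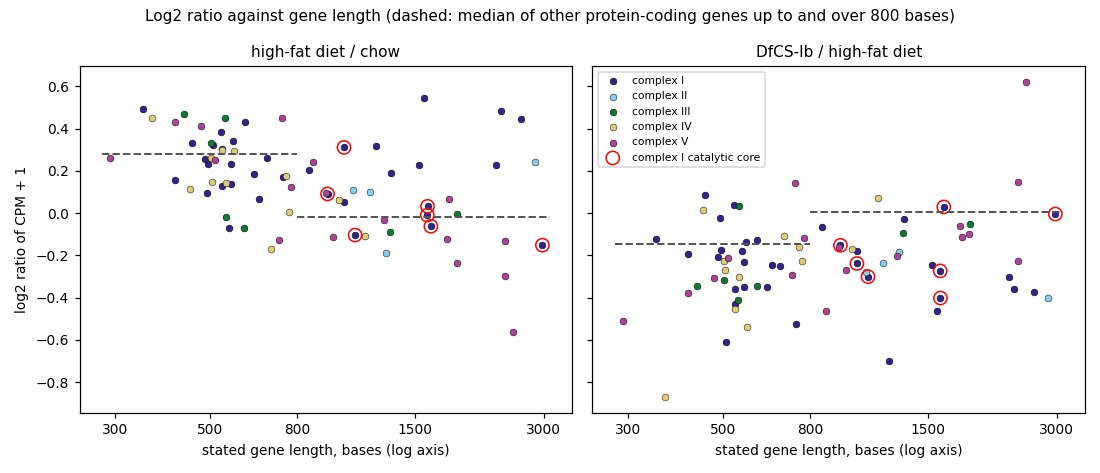
Log2 ratio of CPM + 1 against stated gene length in bases (log axis) for the 75 analysed members, coloured by complex, with the 7 core subunits of complex I ringed in red; dashed lines mark the medians of other protein-coding genes of at least 10 CPM up to and over 800 bases. In the left panel (HFD over chow) short members lie around the dashed 0.28 line, and in the right panel (DfCS-Ib over HFD) 30 of the 34 longer members lie below 0.

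Sequence copies of the subunit genes also took up counts. The deposited tables name 53 rows as pseudogenes or copies of respiratory chain subunits, 44 of them with counts. Of the 53 rows, 50 could be tied to 23 members by their descriptions. In 6 members, Atp5g1, Atp5h, Atp5j, Atp5k, Uqcrb and Ndufa7, the copies held more counts than the member in each library. For Atp5j, the coupling factor 6 of the peripheral stalk, the member had 254, 325 and 241 counts and its copy 1327, 1868 and 1419. The levels of these 6 genes are therefore uncertain, and where reads from gene and copy were placed is not given in the sources used here. The copies as a whole had the same order as the members, at 1.09 times (1.05 to 1.12) for HFD over chow and 0.853 times (0.824 to 0.882) for DfCS-Ib over HFD. Of 15 members whose copies had at least 50 counts in each library, the copies of 14 were lower with DfCS-Ib than on HFD (51.5% of all genes). The copies of 10 of the 15 were higher on HFD than on chow (51.9% of all genes).

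Subunits encoded on the mitochondrial genome were ordered the other way. Of 13 such genes 8 were analysed, and their median log2 ratio was -0.35 for HFD over chow and 0.21 for DfCS-Ib over HFD. CYTB, the cytochrome b of complex III, stood at 12009 CPM on chow, 9516 on HFD and 10430 with DfCS-Ib. ND5, a proton-pumping subunit of complex I, stood at 7211, 4735 and 7065 CPM, and ND2 at 7062, 5083 and 7315. COX1, the catalytic subunit of complex IV, was near level at 12569, 13032 and 11837 CPM. For ND2, ND5 and CYTB the HFD library was the low one, where most nuclear members had it high. COX2, COX3, ATP6, ATP8, ND3 and ND4L each had under 2 CPM in every library, and the 8 analysed genes include such a gene. The other genes of this set had 1111 CPM or more, so levels within it depend on how reads were assigned.

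Genes needed to build and control the chain were read from lists of related genes. Complex I assembly factors resembled the complex I subunits, with medians of 0.28 for HFD over chow and -0.14 for DfCS-Ib over HFD. Of these 14 genes, 10 were lower with DfCS-Ib than on HFD, against 51.5% of all genes. Acad9, an assembly factor related to acyl-CoA dehydrogenases, stood at 27.9, 36.7 and 22.5 CPM, and Ndufaf4 was opposite at 50.6, 29.8 and 37.6. Of the 32 assembly factors of complexes II to V, 23 were higher on HFD than on chow (51.9% of all genes). With DfCS-Ib 24 of the 32 were lower than on HFD (51.5%). Among them Uqcc2, a factor for cytochrome b, stood at 7.71, 15.2 and 8.48 CPM, and Coa3, a factor for COX1, at 26.9, 34.0 and 21.2. Cyc1, the cytochrome c1 of complex III, stood at 177, 170 and 139 CPM, and Cycs, the cytochrome c gene, at 4.65, 3.96 and 3.73. Atpif1, the inhibitor of ATP synthase hydrolysis, was 5.48, 14.2 and 10.7 CPM, lowest on chow.

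Transcription factors and coactivators of respiratory genes were not ordered like the members. Of 15 genes, 13 were lower on HFD than on chow (median -0.19), against 48.1% of all genes. With DfCS-Ib 13 were higher than on HFD (median 0.08), against 48.5% of all genes. Ppargc1a, the coactivator PGC-1α, stood at 33.6 CPM on chow, 11.1 on HFD and 30.6 with DfCS-Ib, so the HFD library was the low one with log2 ratios of -1.52 and 1.38. Ppargc1b was high with DfCS-Ib alone, at 12.4, 12.2 and 29.5 CPM. Esrra, the receptor ERRα, stood at 50.6, 28.7 and 34.4 CPM. Nrf1, the factor named with the motif above, was similar at 12.4, 11.3 and 11.4 CPM, as was Gabpb1 at 9.29, 9.40 and 9.51. Members with and without the NRF1 letters in the promoter had medians of 0.24 and 0.17 for HFD over chow and of -0.23 and -0.24 for DfCS-Ib over HFD. For the ETS letters the medians with and without were -0.28 and -0.20 for DfCS-Ib over HFD.

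The tricarboxylic acid cycle, which feeds electrons to complexes I and II, was mixed, with a median of 0.02 for HFD over chow and -0.05 for DfCS-Ib over HFD over 23 analysed genes. Cs, citrate synthase, was highest on HFD at 75.5, 119 and 74.6 CPM, whereas Fh1, fumarase, was lowest there at 560, 184 and 460. Idh3a, Ogdh and Dlst were at least 1.5-fold lower on HFD than on chow. Pdk1, a kinase that inhibits pyruvate dehydrogenase, stood at 60.6, 109 and 56.0 CPM. Carriers and uncoupling proteins had medians of -0.12 and -0.02, and among them Ucp2 was highest with DfCS-Ib, at 20.1, 25.6 and 42.6 CPM. Import and cristae genes had medians of -0.17 and -0.09, and Oma1, a protease of the inner membrane, stood at 10.6, 19.4 and 10.2 CPM.

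Mitochondrial ribosomal proteins, nuclear genes for the ribosome that makes the subunits of the mitochondrial genome, were close to the members. Their 71 analysed genes had medians of 0.22 for HFD over chow and -0.24 for DfCS-Ib over HFD. Lower with DfCS-Ib than on HFD were 60 of the 71, against 51.5% of all genes. Mrpl44 stood at 15.3, 25.5 and 18.8 CPM and Mrpl38 at 36.7, 48.6 and 31.4. The 74 cytosolic ribosomal proteins, also short and nuclear-encoded, had a median of 0.13 for HFD over chow but -0.01 for DfCS-Ib over HFD. The NRF1 letters were in 19.1% and the ETS letters in 35.3% of the matched promoters of mitochondrial ribosomal proteins.

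**Figure D4:**
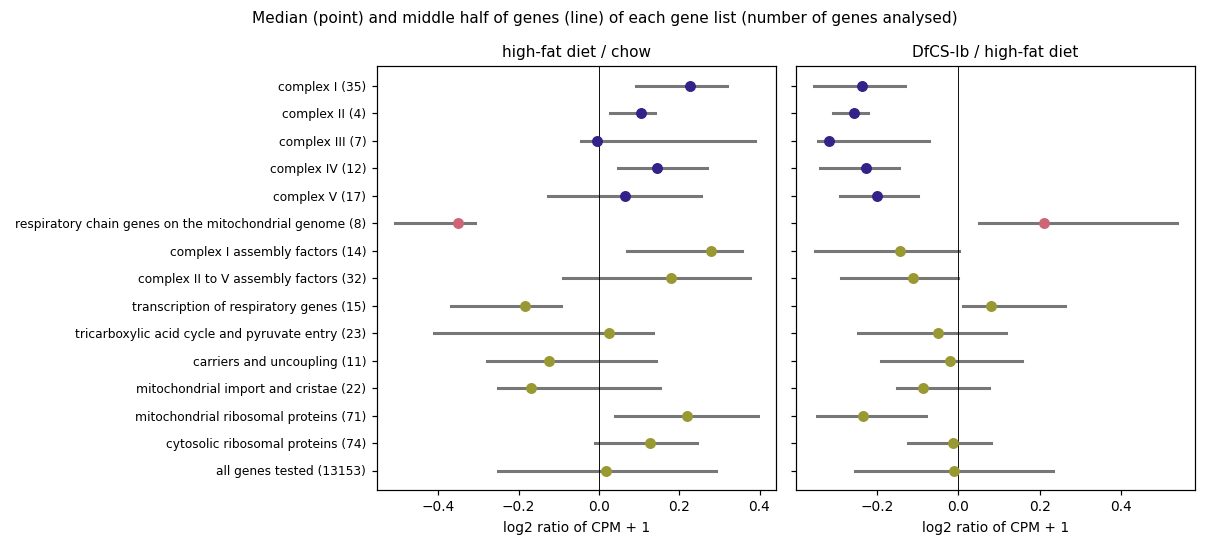
Median (point) and middle 50% (line) of the log2 ratio of CPM + 1 for each complex, for the lists of related genes and for all genes tested, with the number of analysed genes in brackets, for HFD over chow (left) and DfCS-Ib over HFD (right). The 8 genes of the mitochondrial genome lie at -0.35 and 0.21, opposite to complexes I, II, IV and V at 0.07 to 0.23 and to the 5 complexes at -0.32 to -0.20.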

How the data were processed

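Each of the 3 files gives raw read counts per gene and the RPKM that the authors deposited beside them, with gene type, mm10 position, strand and stated length, per the file headers. The submitters' processing notes name TopHat2 and the mm10 build. Which program counted the reads, whether it used strand and how it treated reads with several matches is not given in the sources used here. The counts were scaled with TMM factors (edgeR 4.0.16 in R 4.3.3), and log2 ratios were taken of CPM + 1 over genes averaging 1 CPM or more. With 1 library per group there was no test. Single-gene folds are ratios of scaled counts with exact 95% binomial intervals, which cover counting error only. Shares of isoforms used the deposited RPKM, and level comparisons between genes used scaled CPM per kilobase. The ratio calculation was checked on simulated data.

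Members and lists were chosen with earlier results of these data known. Named members were the 5 highest and 5 lowest ratios per comparison among members of at least 10 CPM, the 2 members of highest RPKM per complex, catalytic subunits, tissue isoforms, and members at 0 or not structural. From other lists they were genes at least 1.5-fold apart, and Ppargc1a, Cyc1 and Cycs. Other members, and genes of the mitochondrial genome, Nrf1 and Gabpb1, were named after their values were seen. A few items are not reported here by name.

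Alternatives were unscaled CPM, DESeq2 1.42.0 size factors, RPKM, a pseudocount of 0.1, no filter and a 10 CPM filter. Others left out the 50 most abundant genes together with those of the mitochondrial genome, or left out overlapping genes. Chosen after seeing the data were copies added, structural subunits only and genes over 800 bases only.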

Additional observations from a re-analysis of the deposited data

How the results depend on the processing

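The direction of the members' median in each of the 3 comparisons was the same in all alternatives. Without TMM factors the median of all genes moved to 0.11 (HFD over chow) and -0.10 (DfCS-Ib over HFD), and the members' medians to 0.26 and -0.33. Then 32 members were at least 25% higher on HFD than on chow (29.7% of all genes). At least 20% lower with DfCS-Ib than on HFD were 40 members (26.9%). With RPKM the medians were 0.26 and -0.33, and the counts were 32 (24.1% of all genes) and 40 (21%). With no filter the medians were 0.13, -0.20 and, for DfCS-Ib over chow, -0.0583. Then 2 of 84 members were lower on HFD than on chow (7.98% of all genes). At 10 CPM the medians for HFD and DfCS-Ib over chow were 0.14 and -0.0898. Of 70 members, 0 were lower on HFD than on chow (20.2% of all genes). With DfCS-Ib 0 were higher than on HFD (17.4%) and 2 higher than on chow (11.5%). Without overlapping genes the first 2 medians were 0.21 and -0.24. Then 6 of 56 members were lower with DfCS-Ib than on chow (10.5% of all genes). With copies added the medians over chow were 0.17 and -0.0885, and with structural subunits only 0.17 and -0.0898. Of the structural subunits, 0 were lower on HFD than on chow (19.6% of all genes). With DfCS-Ib 0 of them were higher than on HFD (18.5%). Over 800 bases the 3 medians were 0.0584, -0.19 and -0.13. Of 34 such members, 3 were higher on HFD than on chow (22.2% of all genes of that length). With DfCS-Ib 7 were lower than on HFD (19.1%), 7 lower than on chow (11.7%) and 0 higher than on chow (15.3%). The value was lowest with DfCS-Ib in 24, beside 28.6% of all genes of any length.

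Of 165 recomputed medians of single complexes 8 changed sign. For HFD over chow, complex III gave 0.10 without TMM factors, 0.10 with RPKM and 0.39 without overlapping genes, complex II gave -0.0437 without overlapping genes, and over 800 bases complexes IV and V gave -0.0239 and -0.12. For DfCS-Ib over chow, complex III gave -0.0549 with copies added and -0.12 over 800 bases. Fewer genes enter where some are left out, and otherwise the cause was not tested. No paired analysis was possible because each group has 1 library. Depth limits low genes such as Cox7a1, Atp5g2 and Cox4i2, whose intervals for HFD over chow include 1.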
